A study of Mus musculus with 6 samples.

Results

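Melanocytes make the pigment of the hair shaft, and 10 genes of pigment synthesis and of the melanocyte lineage were followed in RNA-seq libraries of mouse back skin. The 10 genes were chosen by name, as the enzymes Tyr, Tyrp1 and Dct, the melanosome proteins Pmel and Mlana, the transporters Slc45a2 and Oca2, and the lineage regulators Mitf, Kit and Sox10. All 10 were found, each once, among the 21959 genes of the deposited table. In skin treated with rebamipide for 7 days Mitf was lower than in vehicle-treated skin, and the other 9 genes had lower fitted values that did not pass the test. The 7 genes of pigment synthesis spread widely within each group, and a rebamipide library lay above a vehicle library for each of them.

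The study asked how rebamipide, a drug that protects the gastric mucosa, acts on hair regrowth. The mice were wild-type male C57BL/6 animals, shaved on the back at 7 weeks of age while the hair follicles were in telogen, the resting phase of the hair cycle. The vehicle group (n = 3) received dipropylene glycol in distilled water on the back once a day for 7 days, and the rebamipide group (n = 3) received 3% rebamipide in the same way. Poly-A RNA of full-thickness back skin was sequenced from a cohort of mice kept apart from the other assays. A value can therefore mix epidermis, follicles, dermis and the fat below, in proportions that differed between the libraries, as given further on. In such bulk samples fewer cells of a type and less RNA per cell cannot be told apart.

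Melanin is made inside melanosomes, where tyrosinase oxidizes tyrosine and the related enzymes TYRP1 and DCT shape the later steps. In mouse back skin the pigment cells sit in the hair follicles, and the enzymes are switched on when a follicle enters anagen, its growing phase, and switched off again before it rests. The transcription factor MITF drives the pigment genes, SOX10 acts upstream of MITF, and the receptor KIT keeps the lineage alive. MITF and KIT are also used by mast cells, and SOX10 by Schwann cells.

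The libraries held 38676018 to 39915276 counts in the vehicle group and 32709801 to 34706852 in the rebamipide group. Mitochondrial genes took 2.59% to 5.36% of the counts in vehicle and 13.28% to 21.96% in rebamipide, and counts relative to library size (CPM) were therefore scaled with edgeR's TMM factors, which correct for such differences in composition. Over the 14875 genes tested the median log2 fold change (rebamipide minus vehicle) was -0.175 after TMM scaling and -0.778 with total counts alone. By edgeR's quasi-likelihood test 2093 genes were higher and 968 lower at a Benjamini-Hochberg adjusted p-value under 0.05, and 1258 were higher and 3752 lower with total counts alone. The libraries also differed in tissue make-up. The third rebamipide library had 0 counts of the keratinocyte genes Krt14, Krt15 and Dsg3, which goes against its skin label, and the brown fat gene Ucp1 had 0 counts in each vehicle library against 81048, 220449 and 150572 counts in the rebamipide libraries.

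The 3 enzyme genes share a sequence just upstream of their starts, which is shown here because these genes moved together across the libraries. The M-box core, GTCATGTG, is the element through which MITF is known to act on pigment genes. The windows are RefSeq promoters of build GRCm38.p6, printed 5′ to 3′ on the strand of the gene with the motif in capitals. The Tyr window is chr7:87493513-87493762 on the minus strand, and its motif lies at -23 to -16, counted from the start.
Tyr: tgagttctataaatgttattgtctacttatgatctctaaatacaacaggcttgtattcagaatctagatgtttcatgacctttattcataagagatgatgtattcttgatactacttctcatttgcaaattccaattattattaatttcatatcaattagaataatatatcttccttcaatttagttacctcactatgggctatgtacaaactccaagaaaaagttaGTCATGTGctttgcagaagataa
For Dct the window is chr14:118052247-118052496 on the minus strand, and its motif lies at -152 to -145.
Dct: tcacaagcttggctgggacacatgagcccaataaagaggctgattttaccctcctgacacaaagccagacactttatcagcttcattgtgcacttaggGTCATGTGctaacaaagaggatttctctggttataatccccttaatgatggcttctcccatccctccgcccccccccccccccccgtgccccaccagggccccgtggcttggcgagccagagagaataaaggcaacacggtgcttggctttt
The Tyrp1 motif lies at -48 to -41, and the 30 bases around it are chr4:80834154-80834183 on the plus strand.
Tyrp1: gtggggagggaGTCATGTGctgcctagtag

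The M-box core was searched on both strands in the 250 bases before each start. It was present in 301 of 32851 windows of all genes (0.92%), and in the windows of Tyr, Tyrp1 and Dct among the 6 members that have one. The shorter E-box CATGTG, which lies inside the M-box core, was present in 12.25% of all windows and in those of Tyr, Tyrp1, Dct and Oca2. The Kit and Mitf windows held neither, and Pmel, Mlana, Slc45a2 and Sox10 had no window in the table. Of 17 other melanocyte genes with a window 0 held the M-box core and 6 held CATGTG.

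Mitf has 3 windows in the table, since it is transcribed from several starts that serve different cell types, and the start used by melanocytes is the most downstream one. The 250 bases before the most downstream window's start, chr6:97991533-97991782 on the plus strand, held the cAMP response element TGACGTCA (in capitals) at -153 to -146, an element present in 1.55% of all windows.
Mitf: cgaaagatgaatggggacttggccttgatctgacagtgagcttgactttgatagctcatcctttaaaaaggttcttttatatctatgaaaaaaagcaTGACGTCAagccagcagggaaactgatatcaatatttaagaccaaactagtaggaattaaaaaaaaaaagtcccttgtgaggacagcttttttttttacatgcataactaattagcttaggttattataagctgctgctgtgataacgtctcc
The deposited counts do not separate the starts, so each Mitf value sums over all of them. A match of letters describes the window and says nothing about binding in these samples.

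**Figure D1:**
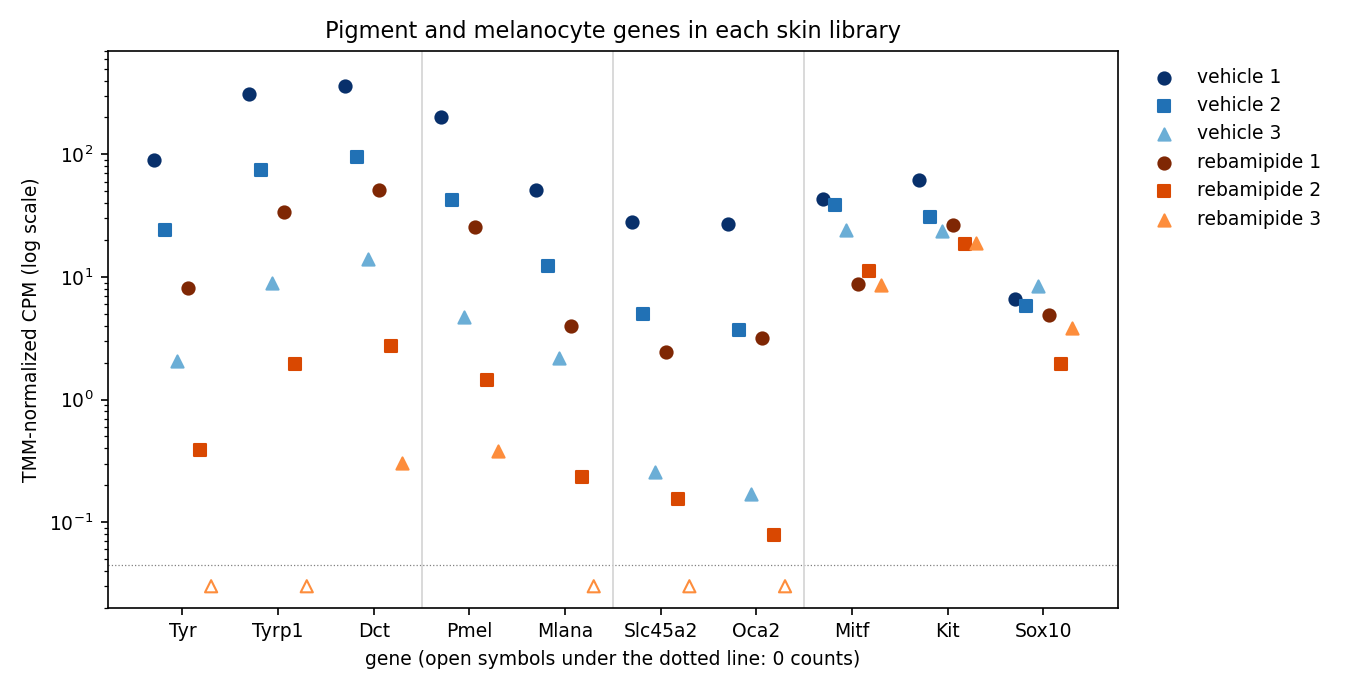
TMM-normalized CPM (log axis) of the 10 genes, with 1 point per library (blue shades for the 3 vehicle libraries, brown and orange for the 3 rebamipide libraries) and open symbols at the bottom for 0 counts. The 7 pigment genes on the left fall in 1 order of libraries, with the first rebamipide library above the third vehicle library, while Mitf and Sox10 have every rebamipide point below every vehicle point.

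Tyr (ENSMUSG00000004651, GRCm39 chromosome 7, 87073979 to 87142720, minus strand) encodes tyrosinase, the rate-limiting enzyme of melanin synthesis. Its level was 90.5, 24.1 and 2.05 CPM in vehicle and 8.07, 0.390 and 0 CPM in rebamipide. The 0 of the third rebamipide library allows up to 3 counts, or 0.0864 CPM before TMM scaling, a limit set by counting error alone. The groups overlapped, because the first rebamipide library lay above the third vehicle library. The log2 fold change of -3.78 ± 2.02 (SE) did not pass the test (adjusted p = 0.209, edgeR).

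Tyrp1 (ENSMUSG00000005994, chromosome 4, 80752360 to 80769956, plus strand), a tyrosinase relative that stabilizes the enzyme and sets the shade of eumelanin, was at 308, 74.0 and 8.90 CPM in vehicle and at 33.9, 1.95 and 0 CPM in rebamipide. Dct (ENSMUSG00000022129, chromosome 14, 118250202 to 118289656, minus strand), the dopachrome tautomerase that also marks early melanocytes, was at 358, 95.9 and 14.1 CPM in vehicle and at 50.9, 2.73 and 0.305 CPM in rebamipide. Both had their highest value in the first vehicle library and their lowest in the third rebamipide library, and both overlapped between the groups in the same place as Tyr. The log2 fold change was -3.45 ± 2.103 for Tyrp1 and -3.12 ± 1.87 for Dct, with adjusted p-values of 0.26 and 0.254 (edgeR). Dct was the only enzyme with counts in the third rebamipide library, where it had 8 against 17876 in the first vehicle library.

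Pmel (ENSMUSG00000025359, chromosome 10, 128540064 to 128556107, plus strand) forms the amyloid fibrils on which melanin is laid down. It was at 201, 42.3 and 4.75 CPM in vehicle and at 25.7, 1.44 and 0.382 CPM in rebamipide. Pmel overlaps Cdk2 by 837 bases and Dgka by 105 bases, both on the opposite strand, and no source used here gives the strand setting of the counting, so part of its reads may belong to these neighbours. In the third rebamipide library Pmel had 10 counts, against 892 of Cdk2 and 572 of Dgka. Mlana (ENSMUSG00000024806, chromosome 19, 29675224 to 29686034, plus strand), a melanosome membrane protein needed for PMEL maturation, was at 51.5, 12.4 and 2.18 CPM in vehicle and at 4.02, 0.234 and 0 CPM in rebamipide. Neither gene separated the groups, and the log2 fold changes were -3.17 ± 1.84 for Pmel (adjusted p = 0.24, edgeR) and -3.94 ± 1.86 for Mlana (adjusted p = 0.166). Mlana passed the test in DESeq2 (adjusted p = 0.0385).

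Slc45a2 (ENSMUSG00000022243, chromosome 15, 11000807 to 11029319, plus strand) and Oca2 (ENSMUSG00000030450, chromosome 7, 55889508 to 56186266, plus strand) encode membrane transporters that keep the melanosome at the pH tyrosinase needs, and loss of either causes albinism. Slc45a2 was at 27.8, 5.00 and 0.257 CPM in vehicle and at 2.44, 0.156 and 0 CPM in rebamipide. Oca2 was at 26.8, 3.72 and 0.171 CPM in vehicle and at 3.16, 0.0779 and 0 CPM in rebamipide. Per length (FPKM) these were the 2 lowest of the 7 genes in every vehicle library, and the third vehicle library held only 12 counts of Slc45a2 and 8 of Oca2. The log2 fold changes were -3.65 ± 2.00 and -3.23 ± 2.14, with adjusted p-values of 0.219 and 0.294 (edgeR).

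All 7 pigment genes had the same order of libraries, from vehicle 1 through vehicle 2, rebamipide 1, vehicle 3 and rebamipide 2 to rebamipide 3. That order was found for 395 of the 14875 genes tested (2.66%). On counts over library total, before TMM scaling, the first vehicle library supplied 77.2% (Dct) to 87.7% (Oca2) of a gene's vehicle sum. The first rebamipide library supplied 94.6% (Pmel) to 98.1% (Oca2) of the rebamipide sum. Within the vehicle group the highest library exceeded the lowest 24.9-fold for Mlana and 166-fold for Oca2 on the same scale. The other 5 genes lay in between. The same ratio was 1.89 for Mitf, 2.78 for Kit and 1.41 for Sox10.

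The fitted values of the pigment genes therefore rested on single libraries. Their median log2 fold change was -3.45 with all libraries, -1.57 without the first vehicle library and -7.09 without the first rebamipide library, against a median of -0.175 over all genes tested with all libraries. In the 6 edgeR fits that each left out 1 library none of the 7 genes passed the test, with adjusted p-values of 0.0543 to 0.797. DESeq2 called all 7 lower without the first rebamipide library, a fit in which it called 25.2% of all genes lower, and none of them in the other fits that left out a library. The third rebamipide library was the lowest for all 7, and without it the log2 fold change was -3.19 for Tyr, -2.53 for Dct and -3.35 for Mlana.

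Levels of different genes were compared per length, as FPKM, which divide a count by gene length and library total. The 7 pigment genes summed to 428, 97.0 and 12.2 FPKM in the vehicle libraries and to 35.6, 1.59 and 0.165 FPKM in the rebamipide libraries, so the first vehicle library held far more pigment transcript than any other. Tyrp1 made up 31.2% to 33.3% of this sum in the 5 libraries in which all 7 genes had counts. Pmel followed with 20.5% to 29.6%, Dct with 18.1% to 23.7% and Mlana with 9.91% to 20.5%. Pmel lay above Dct in 4 of the 5 libraries and below it in the third vehicle library, and Mlana lay below both in all 5. Tyr took 2.58% to 4.31% of the sum, Slc45a2 0.85% to 2.79% and Oca2 0.43% to 2.08%. The third rebamipide library was left out of these shares, since it held only 18 counts of the 7 genes, 10 of Pmel and 8 of Dct.

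**Figure D2:**
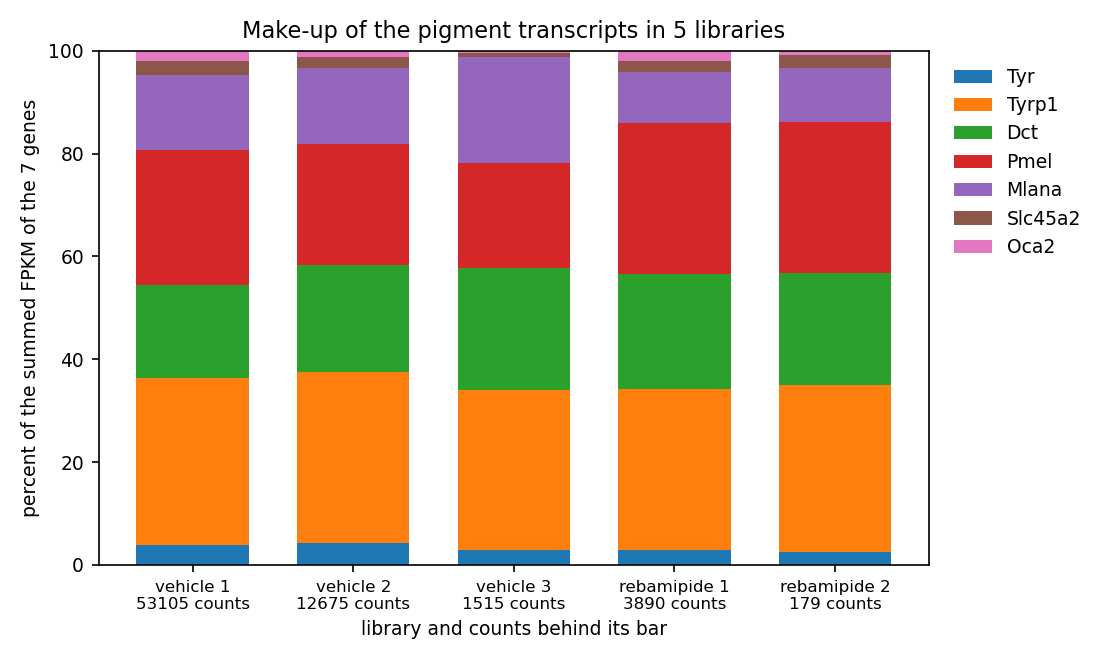
Share of each gene (percent, stacked) in the summed FPKM of the 7 pigment genes, for the 5 libraries with counts of all 7, with the counts behind each bar written under it. Tyrp1 stays between 31.2% and 33.3% while the counts behind the bars range from 53105 to 179, and Mlana is a smaller share in both rebamipide libraries than in the 3 vehicle libraries.

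The make-up was not fixed, and it was compared within libraries as the share of a gene in its own counts plus those of Dct, with exact 95% binomial intervals. The intervals cover counting error only. Among genes with 2 to 21 counts 77.4% to 80.1% had an even number, so both reads of a pair may have been counted and the intervals may be too narrow. Oca2 was 6.97% (6.62% to 7.34%) in vehicle 1, 3.73% (3.22% to 4.3%) in vehicle 2 and 1.2% (0.52% to 2.35%) in vehicle 3. Slc45a2 was 7.21%, 4.95% and 1.79% in the same libraries. For both transporters the share was thus lowest in the vehicle library with the least pigment transcript.

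In rebamipide 1 the share was 5.85% (4.76% to 7.1%) for Oca2 and 4.57% (3.61% to 5.7%) for Slc45a2, inside the range of the vehicle libraries. Tyr was 20.2% in vehicle 1, 20.1% in vehicle 2, 12.7% (10.4% to 15.3%) in vehicle 3 and 13.7% (12.1% to 15.4%) in rebamipide 1. Mlana was 12.6%, 11.4% and 13.4% in the vehicle libraries and 7.32% (6.11% to 8.68%) in rebamipide 1, an interval below that of each vehicle library. Its share in rebamipide 2 was 7.89% on 6 counts, with an interval of 2.95% to 16.4% that spans the vehicle values. The difference in Mlana was noticed after its values were seen and the groups were not tested for it.

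Mitf (ENSMUSG00000035158, GRCm39 chromosome 6, 97784013 to 97998310, plus strand) was at 43.4, 38.4 and 24.3 CPM in vehicle and at 8.83, 11.2 and 8.55 CPM in rebamipide. The lowest vehicle library lay above the highest rebamipide library, so the groups did not overlap. Its mean fell from 35.4 ± 9.93 (SD, n = 3) to 9.53 ± 1.47 CPM (n = 3), a fitted 3.71-fold difference, with a log2 fold change of -1.89 ± 0.29 (SE) (adjusted p = 0.0125, edgeR). Mitf was the only one of the 10 genes called lower, beside 6.51% of all genes tested, and 0 were called higher, beside 14.1% of all genes. At an unadjusted p-value under 0.05 Mitf was again the only one (edgeR), beside 18.8% of all genes lower. DESeq2 called 2 lower, beside 15.1% of all genes, and limma-voom 1, beside 6.94%, and neither called a member higher. A log2 fold change below that of Mitf was found for 11.5% of the genes tested. The call was lost in edgeR without the second vehicle library (adjusted p = 0.0747) and without the second rebamipide library (0.0603), fits in which 0 and 1 genes of the whole table passed (the latter 0.00652% of all genes, called higher). DESeq2 called Mitf lower in both of these fits.

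Kit (ENSMUSG00000005672, chromosome 5, 75735576 to 75817382, plus strand), the receptor for stem cell factor, was at 61.9, 30.6 and 23.5 CPM in vehicle and at 26.5, 18.7 and 19.0 CPM in rebamipide. The groups overlapped in the first rebamipide library, and the log2 fold change was -0.85 ± 0.40 (adjusted p = 0.166, edgeR) with all libraries and -0.35 without the first vehicle library. Sox10 (ENSMUSG00000033006, chromosome 15, 79039108 to 79049440, minus strand) was at 6.65, 5.85 and 8.43 CPM in vehicle and at 4.87, 1.95 and 3.82 CPM in rebamipide. Its groups did not overlap, yet the log2 fold change of -0.97 ± 0.41 did not pass the test (adjusted p = 0.134, edgeR), and it passed with total counts alone (adjusted p = 0.0478). Mitf and Sox10 were the 2 of 10 genes with every rebamipide library below every vehicle library, which held for 24.0% of all genes tested. The third vehicle library, lowest of its group for the 7 pigment genes, was highest of all 6 for Sox10.

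The regulators and the genes of pigment synthesis thus had different spreads. Per length, Dct was 8.67 times Mitf in the first vehicle library, 2.62 times in the second and 0.611 times in the third. In the rebamipide libraries the ratio of Dct to Mitf FPKM was 6.06, 0.256 and 0.0375. The first rebamipide library, with Mitf at 8.83 CPM, held more of each pigment gene than the third vehicle library, where Mitf was at 24.3 CPM.

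**Figure D3:**
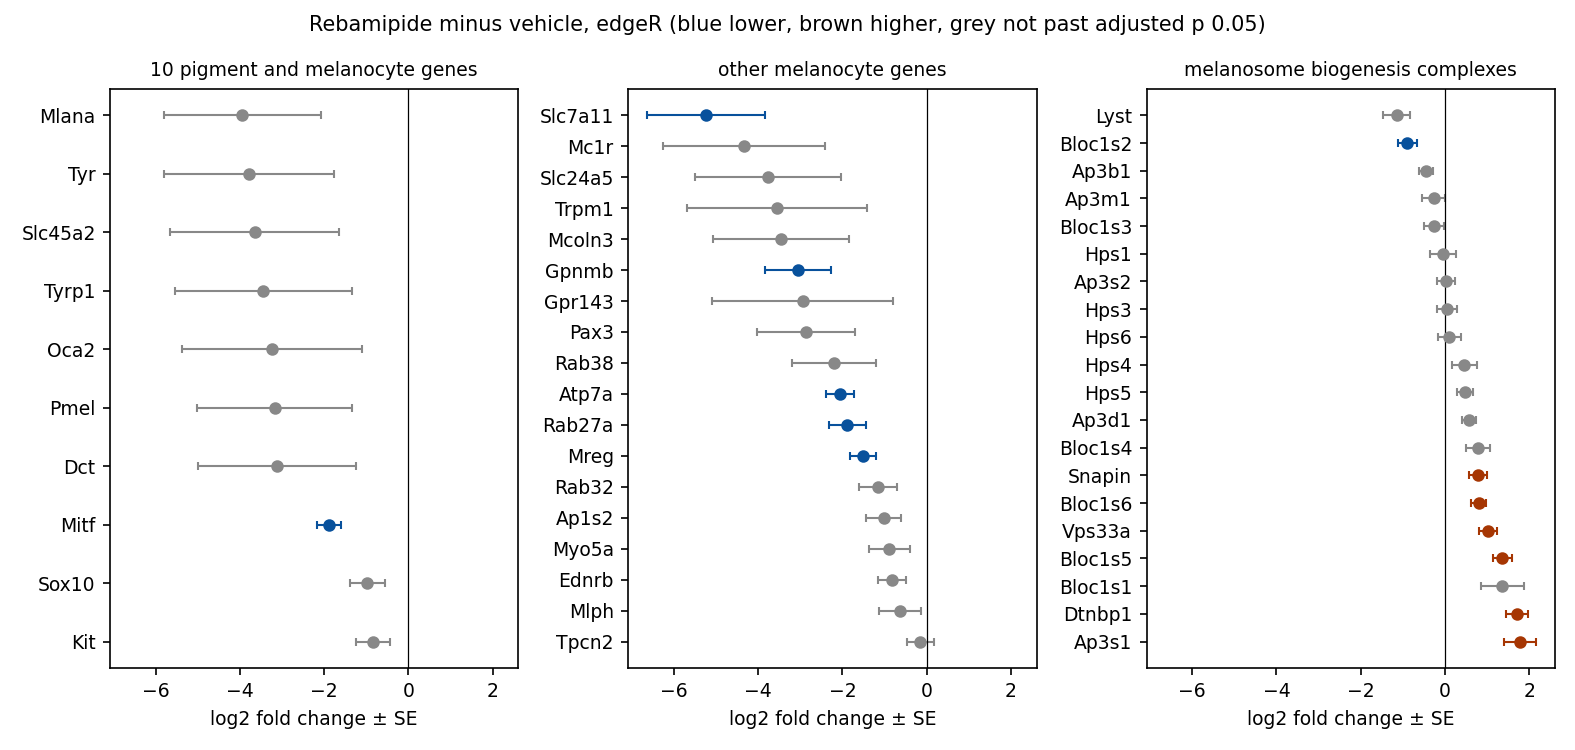
Log2 fold change (rebamipide minus vehicle) ± SE from edgeR for the 10 genes, for 18 other melanocyte genes and for 20 genes of the melanosome biogenesis complexes, with blue for lower, brown for higher and grey for not past the adjusted p-value of 0.05. Of the 10 genes the pigment genes lie furthest to the left but carry standard errors of 1.84 to 2.14, while Mitf, at -1.89, has one of 0.29.

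A list of 20 other genes with a role in melanocytes, of which 18 had enough counts to be tested, held 5 genes called lower and 0 called higher, beside 6.51% and 14.1% of all genes tested. At an unadjusted p-value under 0.05 the counts were 9 and 0 in edgeR, beside 18.8% and 20.9% of all genes. At the adjusted threshold they were 9 and 0 in DESeq2, which called 15.1% of all genes lower and 15.8% higher, and 4 and 0 in limma-voom, which called 6.94% and 14.4%. With total counts alone edgeR called 8 lower and 0 higher, beside 25.2% and 8.46% of all genes. Their median log2 fold change was -2.13, and all 18 values were below 0. Atp7a, the copper pump that loads tyrosinase, was at 42.6, 30.0 and 19.7 CPM in vehicle and at 7.57, 7.44 and 7.18 CPM in rebamipide (log2 fold change -2.05 ± 0.33, adjusted p = 0.0131, edgeR). Rab27a, a GTPase that ties melanosomes to their motor, was at 23.0, 27.4 and 24.7 CPM in vehicle and at 10.8, 6.12 and 3.44 CPM in rebamipide (-1.88 ± 0.44, adjusted p = 0.0322). Mreg, which acts in melanosome transfer, was at 82.1, 89.2 and 59.2 CPM in vehicle and at 34.3, 28.7 and 18.1 CPM in rebamipide (-1.51 ± 0.30, adjusted p = 0.0225). None of the 3 followed the order of libraries seen for the pigment genes, and each is used by other cell types as well.

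The other called genes were more uneven. Gpnmb, a melanosome glycoprotein that macrophages also make, was at 355, 188 and 74.7 CPM in vehicle and at 46.6, 16.1 and 11.8 CPM in rebamipide (-3.05 ± 0.78, adjusted p = 0.0409, edgeR). Slc7a11, the cystine transporter that feeds yellow pigment synthesis, was at 17.2, 10.4 and 1.58 CPM in vehicle and at 0.593, 0.156 and 0 CPM in rebamipide (-5.24 ± 1.40, adjusted p = 0.0463). Over the list 9 of the 18 genes tested had every rebamipide library below every vehicle library, beside 24.0% of all genes tested. Without the third rebamipide library 4 genes of the list passed as lower (Atp7a, Mreg, Rab27a and Rab38), beside 2.49% of all genes, and without the first vehicle library only Atp7a did, beside 2.52%. None passed in edgeR without the second vehicle or the second rebamipide library, and 7 passed without the first rebamipide library, beside 12.8% of all genes lower. Without the third vehicle library 4 passed as lower (Atp7a, Gpnmb, Mreg and Slc7a11), beside 5.51% of all genes.

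Of the list's genes that edgeR did not call, 5 had the same order of libraries as Tyr, ties at 0 included. Trpm1, a cation channel of melanocytes, was at 121, 26.1 and 2.095 CPM in vehicle and at 12.3, 0.390 and 0 CPM in rebamipide (-3.55 ± 2.13, adjusted p = 0.253, edgeR). Mc1r, the receptor that sets black against yellow pigment, was named after its values were seen, with 8.23, 1.48 and 0.128 CPM in vehicle and 0.461, 0 and 0 CPM in rebamipide. It did not pass in edgeR (adjusted p = 0.145) or limma-voom (0.225) and was called lower by DESeq2 (adjusted p = 0.038). Myo5a, the motor that carries melanosomes to the cell edge, overlapped between groups at 106, 69.1 and 37.9 CPM in vehicle and 19.7, 49.8 and 46.0 CPM in rebamipide (adjusted p = 0.223).

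The complexes that build melanosomes and related organelles act in most cells. Of 20 genes of the HPS, BLOC-1 and AP-3 complexes and their partners 6 were called higher (beside 14.1% of all genes) and 1 lower (beside 6.51%), with a median log2 fold change of 0.47 after TMM scaling, whereas with total counts alone 3 were higher (beside 8.46% of all genes) and 4 lower (beside 25.2%) with a median of -0.17. The direction for the list thus depended on the scaling. DESeq2 called 7 higher and 2 lower, beside 15.8% and 15.1% of all genes, and limma-voom 6 and 2, beside 14.4% and 6.94%. Dtnbp1, a BLOC-1 subunit, was at 20.3, 25.4 and 32.2 CPM in vehicle and at 66.1, 93.5 and 96.0 CPM in rebamipide (log2 fold change 1.71 ± 0.26, adjusted p = 0.0118, edgeR). Bloc1s5, another subunit of that complex, rose with a log2 fold change of 1.36 ± 0.23 (adjusted p = 0.0152), and Ap3s1, the small subunit of the AP-3 adaptor, rose by 1.78 ± 0.38 (adjusted p = 0.0269). These 3 were also higher with total counts alone. Ap3d1, the large delta subunit of AP-3, was at 102, 94.4 and 87.2 CPM in vehicle and at 132, 141 and 151 CPM in rebamipide and had a log2 fold change of 0.57 ± 0.17 after TMM scaling and -0.05 with total counts alone. It did not pass in edgeR (adjusted p = 0.0574) or limma-voom (0.0502) and was called higher by DESeq2 (adjusted p = 0.0329). Vps33a, Snapin and Bloc1s6 were the others called higher after TMM scaling, with log2 fold changes of 1.02, 0.79 and 0.80, and Bloc1s2 was lower at -0.89. Without the third rebamipide library Bloc1s5 and Dtnbp1 were the 2 that passed, as higher beside 6.6% of all genes, and without the second vehicle or the second rebamipide library none passed in edgeR.

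Signals that the follicle and dermis send to melanocytes were given by 11 genes, of which edgeR called 1 higher (beside 14.1% of all genes tested) and 2 lower (beside 6.51%), with a median log2 fold change of -1.82. DESeq2 called 1 higher and 6 lower, beside 15.8% and 15.1% of all genes, and limma-voom called none, beside 14.4% and 6.94%. With total counts alone edgeR called 0 higher and 4 lower, beside 8.46% and 25.2% of all genes. Kitl, the ligand of KIT, was at 31.3, 14.3 and 17.3 CPM in vehicle and at 6.06, 15.5 and 15.4 CPM in rebamipide, and its groups overlapped (-0.77 ± 0.48, adjusted p = 0.266, edgeR). Sfrp1, a Wnt inhibitor, was at 135, 113 and 120 CPM in vehicle and at 72.3, 21.01 and 8.82 CPM in rebamipide. It did not pass in edgeR (adjusted p = 0.115) or limma-voom (0.054) and was called lower by DESeq2 (adjusted p = 0.0364). Bmp4 fell from 35.1, 19.98 and 10.3 CPM to 7.28, 3.12 and 2.56 CPM (-2.33 ± 0.62, adjusted p = 0.0448), and Fgf2, a growth factor for melanocytes, fell from 8.59, 14.1 and 18.0 CPM to 5.60, 4.64 and 4.27 CPM (-1.49 ± 0.35, adjusted p = 0.0332). Pomc, the precursor of the melanocortin that activates MC1R, was called higher (adjusted p = 0.0419, and 0.0574 with total counts alone) but stayed under 0.5 CPM in every library. None of these genes passed in edgeR without the third rebamipide, the second vehicle or the second rebamipide library. Without the first rebamipide library 1 was higher and 6 were lower, beside 18.3% and 12.8% of all genes. Only Fgf2 passed without the first vehicle library (lower, beside 2.52%) and only Bmp4 without the third vehicle library (lower, beside 5.51%).

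The relatives of MITF were tested as well. Tfe3 was at 42.7, 40.1 and 44.1 CPM in vehicle and at 49.3, 55.9 and 53.0 CPM in rebamipide, with a log2 fold change of 0.32 ± 0.16 (adjusted p = 0.178, edgeR). Tfeb had a log2 fold change of 0.38 (adjusted p = 0.266), and Tfec, which stayed under 1.5 CPM, one of -1.16 (adjusted p = 0.116). None of the 3 passed the test in edgeR, DESeq2 or limma-voom, with Tfec alone under an unadjusted p-value of 0.05 in edgeR, and after TMM scaling Tfe3 and Tfeb had every rebamipide library above every vehicle library, as did 24.5% of all genes tested. With total counts alone the log2 fold change was -0.30 for Tfe3 and -0.22 for Tfeb, and Tfec was called lower (adjusted p = 0.0439, edgeR), so the direction for Tfe3 and Tfeb depended on the scaling.

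Markers of other cells that use the regulators were set beside them. Of 11 mast cell markers 1 was called lower (Mrgprb2, adjusted p = 0.0457, edgeR), beside 6.51% of all genes tested, and their summed level was 101 to 320 CPM in vehicle and 50.2 to 159 CPM in rebamipide, so the groups overlapped. The mast cell proteases Mcpt4, Cma1 and Cpa3 were highest in the third vehicle library, at 115, 66.0 and 70.2 CPM, and lowest in the third rebamipide library, at 6.76, 4.05 and 3.32 CPM. Mrgprb1, a receptor of mast cells, was at 2.72, 5.20 and 11.1 CPM in vehicle and at 1.84, 1.29 and 0.611 CPM in rebamipide (adjusted p = 0.0557 in edgeR and 0.00366 in DESeq2). Gata2, a transcription factor of mast cells and of other lineages, went the other way, at 3.09, 4.77 and 11.2 CPM in vehicle and 15.6, 19.4 and 20.2 CPM in rebamipide. It did not pass in edgeR (log2 fold change 1.54 ± 0.50, adjusted p = 0.0753), was called higher by DESeq2 (0.0268) and limma-voom (0.0424), and had a log2 fold change of 0.92 with total counts alone. Hdc, the histamine-forming enzyme, named after its values were seen, also had every rebamipide library above every vehicle library (1.35 ± 0.56, adjusted p = 0.125, edgeR). Over the list DESeq2 called 1 gene higher, beside 15.8% of all genes, and 4 lower (Mrgprb2, Mrgprb1, Ms4a2 and Cpa3), beside 15.1%, and limma-voom called 1 higher, beside 14.4%, and 0 lower, beside 6.94%. Without the third vehicle library edgeR called Gata2 and Hdc higher and none of the 11 lower, beside 11.4% and 5.51% of all genes. Without the first rebamipide library it called 0 higher and 5 lower (Cma1, Cpa3, Mcpt4, Ms4a2 and Tpsb2), beside 18.3% and 12.8%. Kit was highest in the first vehicle library. Of 9 Schwann cell markers 1 was called lower (beside 6.51% of all genes tested) and 1 higher (beside 14.1%), with summed levels of 429.6 to 773 CPM in vehicle and 350.0 to 488 CPM in rebamipide. Erbb3, a neuregulin receptor of both Schwann cells and melanocytes, fell from 131, 121 and 73.8 CPM to 36.8, 22.6 and 12.3 CPM (log2 fold change -2.18 ± 0.45, adjusted p = 0.0248). S100b rose from 4.19, 5.08 and 6.20 CPM to 36.1, 78.6 and 70.0 CPM (adjusted p = 0.00939), whereas the myelin genes Pmp22 and Mbp and the neurotrophin receptor gene Ngfr did not pass (adjusted p = 0.45, 0.736 and 0.115). The log2 fold change was below 0 for the other 8 of the 9 markers. DESeq2 called 2 of the 9 lower (Erbb3 and Egr2) and 1 higher (S100b), beside 15.1% and 15.8% of all genes. The part of these cells in the values of Kit and Sox10 was not tested.

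The pigment genes were set beside the markers of the growing follicle. The summed level of the pigment genes was 1064, 257 and 32.4 CPM in the vehicle libraries and 128, 6.98 and 0.687 CPM in the rebamipide libraries, and 16 genes of the growing hair follicle summed to 20100, 9402 and 219 CPM in vehicle and 1015, 4.48 and 0.382 CPM in rebamipide. Krt71, Krt25 and Krt27, keratins of the inner root sheath, were at 6604, 4609 and 2170 CPM in the first vehicle library and had 0 counts in rebamipide 2 and rebamipide 3. Krt31, Krt34 and Krt86, keratins of the hair shaft, had the smallest p-values of the list (adjusted p = 0.106, 0.108 and 0.111, edgeR) and were also at 0 counts in those libraries. In all, 15 of the 16 follicle genes had the same order of libraries as Tyr, 8 of them with a tie at 0 counts in rebamipide 2 and rebamipide 3, and none was called by edgeR (median log2 fold change -4.66). At an unadjusted p-value under 0.05 edgeR gave 4 lower, beside 18.8% of all genes, while DESeq2 called 1 lower (Lef1), beside 15.1%, and limma-voom 0, beside 6.94%. Without the first rebamipide library edgeR called 8 of the 16 lower (Hoxc13, Krt25, Krt27, Krt28, Krt35, Krt71, Krt73 and Msx2), a fit in which it called 12.8% of all genes lower. The pigment sum per 100 CPM of follicle genes was 5.29, 2.74 and 14.8 in vehicle and 12.6, 156 and 180 in rebamipide, the last 2 on follicle sums under 5 CPM.

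**Figure D4:**
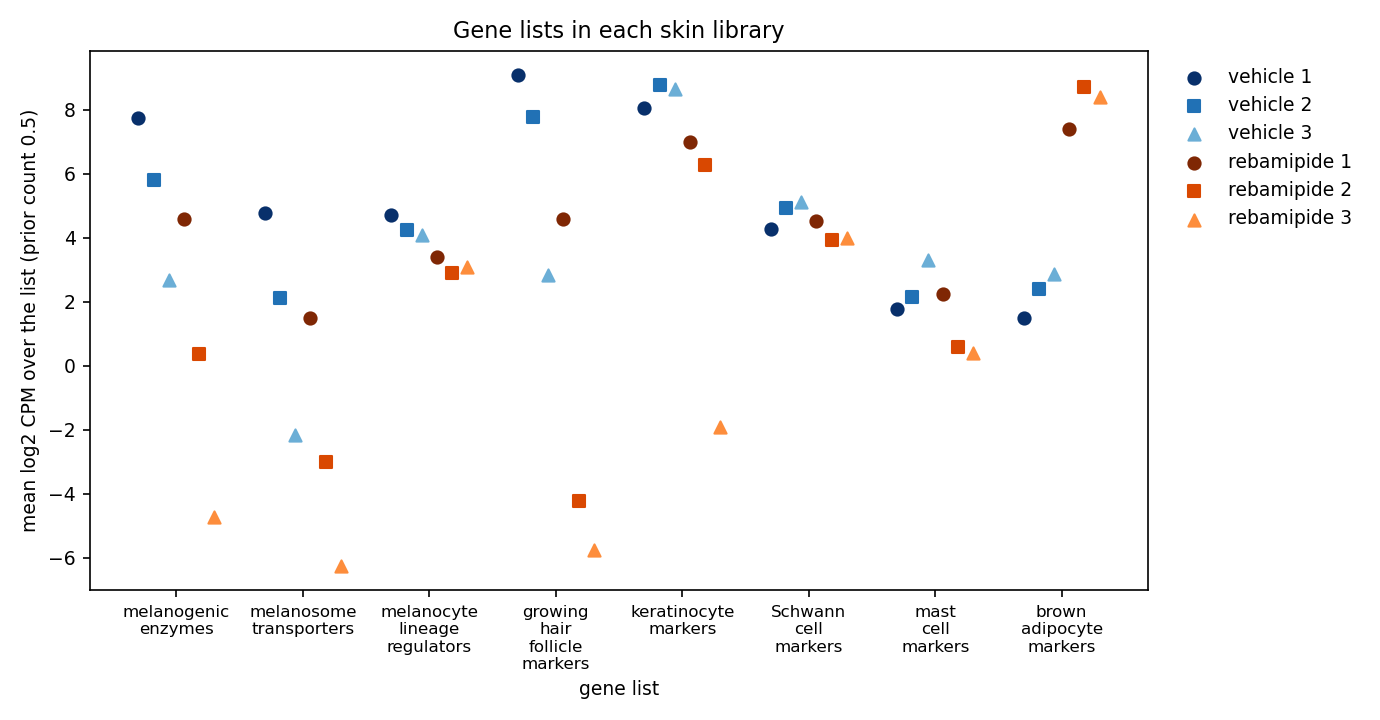
Mean log2 CPM (prior count 0.5) of 8 gene lists, with 1 point per library (blue shades for vehicle, brown and orange for rebamipide). Melanogenic enzymes, melanosome transporters and growing follicle markers spread widely inside both groups in 1 order of libraries, keratinocyte markers lie at -1.91 in rebamipide 3, and brown adipocyte markers stand above every vehicle library in all 3 rebamipide libraries.

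Markers of keratinocytes, of dividing cells and of brown fat were set beside the groups. The 10 keratinocyte markers summed to 3387 to 7295 CPM in vehicle and 134 to 2162 CPM in rebamipide, and Itga6 alone, which other cells share, gave 129 of the 134 CPM in the third rebamipide library. None was called by edgeR or limma-voom, with 1 lower at an unadjusted p-value under 0.05 in edgeR, beside 18.8% of all genes, and 3 lower in DESeq2 (Trp63, Dsg3 and Cdh1), beside 15.1%. Without the third rebamipide library edgeR called 4 lower (Cdh1, Dsg3, Epcam and Trp63), beside 2.49% of all genes. Krt10 of the upper epidermis was at 301, 1840 and 2370 CPM in vehicle and at 566, 354 and 1.95 CPM in rebamipide, and Krt5 of the basal layer was at 1010, 1574 and 1211 CPM in vehicle and at 435, 209 and 0.153 CPM in rebamipide. Trp63, Dsg3 and Cdh1 had the smallest p-values (adjusted p = 0.102, 0.14 and 0.149, edgeR). Of 6 proliferation markers none was called by edgeR or limma-voom, with 3 lower at an unadjusted p-value under 0.05 in edgeR, beside 18.8% of all genes, and 3 lower in DESeq2 (Mki67, Top2a and Ccnb1), beside 15.1%, and they summed to 175 to 557 CPM in vehicle and 42.1 to 127 CPM in rebamipide. Top2a, Ccnb1 and Pcna had adjusted p-values of 0.0883, 0.102 and 0.101 (edgeR). Of 8 brown adipocyte markers 6 were called higher in edgeR (beside 14.1% of all genes tested), 7 in DESeq2 (beside 15.8%), 5 in limma-voom (beside 14.4%) and 0 in edgeR without the second vehicle or the second rebamipide library, with sums of 214 to 384 CPM in vehicle and 5040 to 12960 CPM in rebamipide. Among them Cidea was at 15.6, 33.97 and 58.3 CPM in vehicle and at 1552, 2985 and 3543 CPM in rebamipide (adjusted p = 0.00939). Otop1 rose from at most 0.528 to at least 191 CPM, and Cox8b from at most 35.3 to at least 317 CPM (adjusted p = 0.00939 and 0.014). Elovl3, named after its values were seen, went the other way, at 176, 129 and 238 CPM in vehicle and 82.3, 83.1 and 33.3 CPM in rebamipide (-1.45 ± 0.42, adjusted p = 0.0575, edgeR), and it was called lower with total counts alone (0.0267) and by DESeq2 (0.0121). The part of these differences in tissue make-up in the Mitf value was not tested. Without the third rebamipide library the log2 fold change of Mitf was -1.81 ± 0.37 (adjusted p = 0.0382 in edgeR and 0.0561 in limma-voom), and the remaining 2 rebamipide libraries still held 81048 and 220449 counts of Ucp1.

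Genes with a pattern most like that of the pigment genes were sought over the 6 libraries. Each of 13368 genes with a mean of at least 50 counts, the 10 members left aside, was centred on its own mean log2 CPM and set against the mean of Tyr, Tyrp1, Dct and Pmel by root mean square distance, for which the median gene was at 3.76 on the log2 scale. The nearest of these was Trpm1 at 0.54, followed by Cps1 (0.55), a mitochondrial urea cycle enzyme, and Gjb2 (0.583), the gap junction protein connexin 26. The next were Mcoln3, Serpina9, Wif1, Tdh, Foxn1, Hes2 and Ggt1, at 0.65 to 0.792. Gjb2 was at 1137, 542 and 49.4 CPM in vehicle and 76.0, 8.42 and 0.611 CPM in rebamipide. Among the genes of pigment synthesis outside the reference, Mlana lay at 0.38, Slc45a2 at 0.635 and Oca2 at 0.851. Of the 4 genes of the reference itself Tyr lay at 0.41, Dct at 0.48, Pmel at 0.994 and Tyrp1 at 1.085, the last 2 farther from their common mean than the 10 neighbours named. Mitf at 3.15, Kit at 3.32 and Sox10 at 3.47 lay close to the median distance of all genes. Tyr, Tyrp1 and Trpm1 had 0 counts in the third rebamipide library, where the prior count of 0.5 sets their log2 CPM. Distances of genes at 0 counts there depend on that setting. The 6 libraries give few points, so likeness here describes these samples and says nothing of shared function or control.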

How the data were processed

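RNA-seq of back skin from 3 vehicle-treated and 3 rebamipide-treated mice was analysed. The authors deposited 1 table of 21959 genes with whole-number read counts per library, not normalized. The FPKM deposited beside them equal counts over gene length and library total within 0.1% in all 131754 cells. The submitters' processing notes name fastp 0.22.0, HISAT2 2.1.0, HTSeq 0.9.1 and GRCm39. Strandedness is not given in the sources used here.

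Counts were tested with edgeR 4.0.16 under R 4.3.3 (TMM, filterByExpr, quasi-likelihood F test, two-sided, Benjamini-Hochberg over 14875 genes). Standard errors are the log2 fold change over the square root of F. Groups come from the sample titles. Alternatives were DESeq2 1.42.0, limma-voom (limma 3.58.1), other scalings and filters, log2(FPKM + 1), a replicate block and each library left out. The same omissions in DESeq2 and limma-voom were added after earlier results were seen. Tests were checked on simulated data. Genes and lists were chosen with earlier results of these data known. All 10 genes are described, and of the other lists the 3 genes highest in CPM and up to 3 with the smallest p-value, all genes called among the other melanocyte genes, and the 10 nearest in pattern, with exceptions marked or listed beside a count. Rab9a, Asip and Krt85 were not analysed here, and 2 Schwann cell markers are not reported here, so the counts and sums of that list cover its other 9 markers only. No columns of comparisons made by the authors were used.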

Additional observations from a re-analysis of the deposited data

How the results depend on the processing

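No alternative gave any of the 10 genes a log2 fold change above 0. Mitf passed in 22 of 27 alternatives, from -2.52 to -1.72, with adjusted p-values up to 0.0747. It did not pass in edgeR and limma-voom without vehicle 2 or rebamipide 2, nor in limma-voom without rebamipide 3 (0.0561). The count of the 10 genes called lower was 1 in edgeR, beside 6.51% of all genes, and 2 in DESeq2 (Mitf, Mlana), beside 15.1%. Mitf and Sox10 were the 2 called with total counts alone, beside 25.2% of all genes, and with log2(FPKM + 1), beside 4809 genes. With the replicate block the count was 7, beside 855 genes lower over the whole table. When each library was left out it was 0 to 1 in edgeR, beside 0% to 12.8% of all genes, and 0 to 1 in limma-voom. In DESeq2 it was 1 to 9, where 9 came without rebamipide 1, beside 25.2% of all genes. The cause was not tested.

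Over all genes, 968 were lower and 2093 higher. The count of lower genes was 2535 in DESeq2, 3752 with total counts alone (1258 higher), 1512 with at least 10 counts in every library and 4809 with log2(FPKM + 1). With each library left out in edgeR it was 0 to 1971, and 0 to 2810 genes were higher. DESeq2 without rebamipide 1 called 4225 genes lower and 3608 higher.

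Deviations of same-numbered libraries from their group mean correlated at 0.011, -0.041 and 0.022, and those of differently numbered libraries at -0.315 to 0.39. With 3 libraries per group these values cannot decide whether the replicate numbers pair the samples. With the replicate block all of Tyr, Dct, Pmel, Mlana, Slc45a2, Oca2 and Mitf passed (adjusted p = 0.0238 to 0.0419, edgeR). In that fit 855 genes were lower and 1432 higher over the whole table. With at least 10 counts in every library Pmel, Mitf, Kit and Sox10 were the members tested.

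Depth limits the lowest values. The third rebamipide library held 18 counts of the 7 pigment genes, and 5 of these genes had 0 counts there. The titles number the replicates, and the study's methods give 3 mice per group.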
